A study of Mus musculus with 5 samples.

Results

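The 7 genes described here, *S100a1*, *S100a4*, *S100a6*, *S100a10*, *S100a11*, *S100a13* and *S100a16*, encode S100 calcium-binding proteins. They were taken by symbol, with no measured value in the rule, but with earlier results of these data known. They are 7 of the 21835 genes in the deposited expression table. S100 proteins are small EF-hand proteins that mostly work as dimers. On binding calcium they expose a surface that holds a target, such as an annexin, a cytoskeletal protein or p53, and several are also released from cells and bind receptors such as RAGE. In fibroblasts the best known is S100A4, also called fibroblast-specific protein 1 (FSP1), which is used as a fibroblast and CAF marker and is linked to motility through non-muscle myosin.

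The study asked how the miR-200 family acts in cancer-associated fibroblasts (CAFs), the fibroblasts of a tumor. RNA was sequenced from murine lung CAFs carrying the empty lentiviral vector (CAF-vec, 2 samples, for which the labels give the genotype as WT control) and from such CAFs made to overexpress miR-200b, miR-200a and miR-429 from their shared cluster (CAF-200, 3 samples). The labels describe a neomycin vector with G418 selection, and the methods a hygromycin vector. Each condition was a transduced, drug-selected cell population, and neither the labels nor the methods say that the samples of a condition came from separate transductions or cultures, so the *p* values below measure the spread between these samples, which may be technical. In bulk RNA, fewer cells of a type and less RNA per cell cannot be told apart.

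The cluster encodes mature microRNAs with 2 different seeds (bases 2 to 8, in capitals), shown because a matching heptamer in a 3′-UTR is what a miR-200 target would carry. miR-200b and miR-429 share one seed, and miR-200a has the other. The sequences are those of RefSeq (GRCm38.p6), where all 3 lie on the minus strand of chromosome 4.
miR-200b-3p: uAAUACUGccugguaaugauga
miR-429-3p: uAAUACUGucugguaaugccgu
miR-200a-3p: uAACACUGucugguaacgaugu

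Values were taken as TPM (per-transcript abundances, read counts corrected for transcript length and scaled to a common total) from their behaviour in the table, since no source used here names their unit. Levels and ranks between genes, and the size of ratios between them, rest on that reading. Comparisons of 1 gene between samples do not need its length, but they depend on the total, of which each value is a share. The number of reads per sample is unknown. CAF-vec 1 stood apart from the other samples. Mitochondrial mRNAs (13 genes) took 1.34% of its total, against 9.11% in CAF-vec 2 and 7.74 to 9.22% in CAF-200. The SD of the log2 difference over the genes tested was 0.49 for the pair of CAF-vec samples and 0.19 to 0.20 for pairs of CAF-200 samples. All 8 fibroblast markers were present in every sample, with a summed level of 7421 to 14071 TPM in CAF-vec and 6501 to 7188 TPM in CAF-200. *Col1a1*, *Col1a2* and *Vim* made up most of this sum, and its upper end was CAF-vec 1. Of the other 5 markers of the list, 3 were at higher levels in CAF-200, with *Dcn* at 7.67 and 8.18 TPM in CAF-vec against 51.0 to 61.5 TPM, *Lum* at 3.24 and 4.02 TPM against 26.5 to 32.3 TPM, and *Thy1* at 85.3 and 110.8 TPM against 261 to 277 TPM. *Pdgfrb* was lower, at 214 and 218 TPM in CAF-vec against 174 to 187 TPM, and *Pdgfra* overlapped, at 116 and 91.5 TPM against 83.7 to 95.3 TPM. The 6 epithelial markers summed to at most 0.421 TPM in any sample, with *Krt18* and *Sftpc* listed at 0. The sum of 4 markers of activated CAFs was 149 to 163 TPM in CAF-vec and 979 to 1089 TPM in CAF-200, mostly *Acta2* and *Tagln*. *Zeb1*, the transcription factor best known as a miR-200 target, was 43.5 and 50.7 TPM in CAF-vec and 37.8, 37.5 and 34.1 TPM in CAF-200 (-0.36 on the log2 scale, limma adjusted *p* = 0.0504), just outside the threshold. *Zeb2* was not called, at -0.23 on the log2 scale (limma adjusted *p* = 0.374).

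Among the 7 genes, *S100a16* and *S100a10* were higher in CAF-200 and none was lower. *S100a16* rose 2.02-fold, from 39.8 ± 2.25 TPM (SD, n = 2) to 81.0 ± 2.45 TPM (SD, n = 3), while *S100a10* rose 1.58-fold. The levels of *S100a4* and *S100a6*, the most abundant, differed more between the CAF-vec samples than between the group means. All 7 genes passed the minimum level (0.5 TPM in 2 samples). At an adjusted *p* under 0.05 (limma, Benjamini-Hochberg adjustment over 12175 genes), 2 of the 7 were called higher, 0 lower and 5 were not called. Over all genes tested, 11.9% were called higher and 18.6% lower, 30.5% in all. The median log2 fold-change of the 7 was 0.20, against -0.09 over all genes tested. It was 0.12 without CAF-vec 1 and 0.53 without CAF-vec 2, against -0.06 and -0.12 over all genes. At the thresholds of the study (a log2 fold-change beyond 1 in either direction at an adjusted *p* below 0.01), 1 of the 7 was called, against 4.72% of genes, and 2.37% with a rise.

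**Figure D1:**
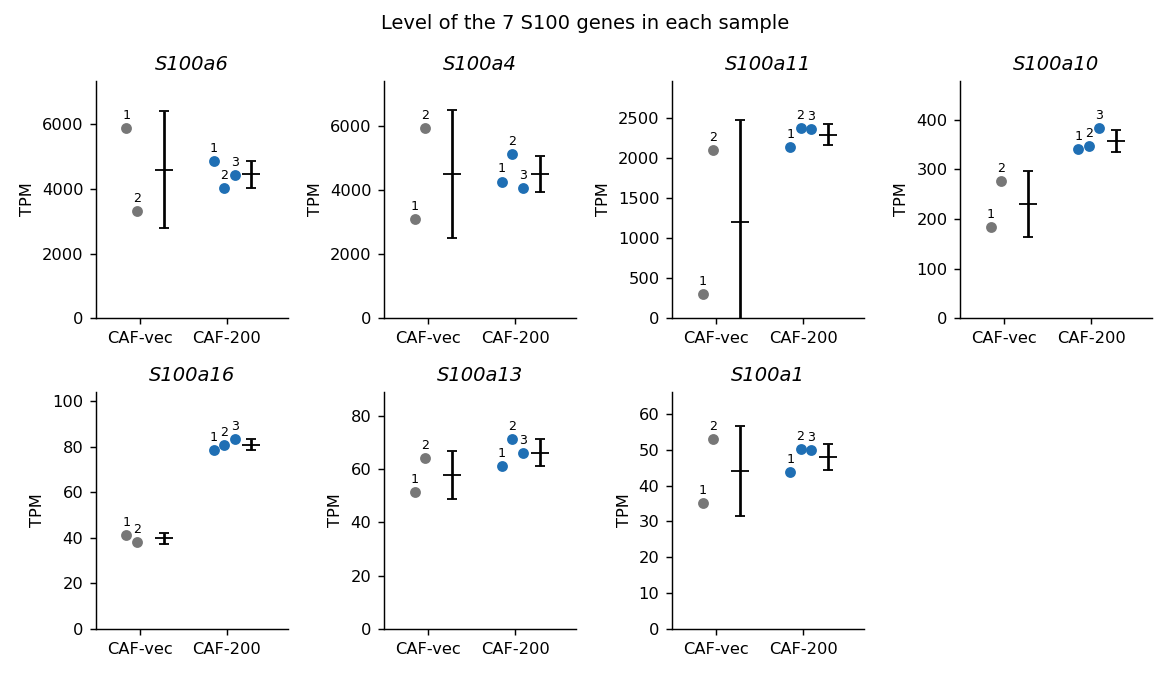
Level in TPM (linear axes from 0) of each S100 gene in the 2 CAF-vec (grey) and 3 CAF-200 (blue) samples, numbered by replicate; black marks are the mean and SD, and the lower end of the SD bar of *S100a11* in CAF-vec lies below 0 and is not drawn. The CAF-200 points of *S100a16* lie at 78.5 to 83.4 TPM, above 41.4 and 38.2 TPM in CAF-vec, while CAF-vec 1 lies far from CAF-vec 2 for *S100a4*, *S100a6* and *S100a11*.

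The plot of levels by sample shows that the genes fell into tiers. *S100a6* (mean of 4510 TPM over the 5 samples) and *S100a4* (4503 TPM) were the most abundant and ranked 14 and 15 of the 12175 genes tested. *S100a11* followed with a mean of 1852 TPM and *S100a10* with 306 TPM. *S100a16* (64.5 TPM), *S100a13* (62.7 TPM) and *S100a1* (46.5 TPM) formed the lowest tier. Neighbours at the top could not be ordered, since *S100a6* exceeded *S100a4* in 3 of 5 samples. *S100a16* and *S100a13* also exchanged places, with *S100a13* the higher in both CAF-vec samples and *S100a16* the higher in all 3 CAF-200 samples. The other neighbours kept their order in 5 of 5 samples. Together the 7 genes made up 0.958% and 1.18% of the total TPM in CAF-vec and 1.18, 1.21 and 1.15% in CAF-200.

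*S100a16* (ENSMUSG00000074457, chr3:90537254-90543151 of GRCm38, plus strand) encodes an S100 protein found in many tissues. It was at 41.4 and 38.2 TPM in CAF-vec and at 78.5, 81.0 and 83.4 TPM in CAF-200. The groups did not overlap, and the samples within each lay close together. The log2 fold-change was 1.02 (standard error 0.0855, 95% CI 0.81 to 1.23, limma adjusted *p* = 0.0028). Under the 14 alternative settings and left-out samples it stayed between 0.96 and 1.11, with an adjusted *p* under 0.05 in all 14 (3.8e-05 to 0.0284, limma). It was 1.07 against CAF-vec 2 alone and 0.96 against CAF-vec 1 alone.

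*S100a16* was also the single gene of the 7 with a miR-200 seed match in its longest annotated 3′-UTR. The match, to miR-200a, lies at chr3:90542631-90542637 (GRCm38, plus strand), 45 bases into a 3′-UTR of 565 bases, and is shown in capitals with its flanks because the gene that carries it rose.
S100a16 3′-UTR: catgtcctgcCAGTGTTctttccatgc
The heptamer for miR-200b and miR-429 (CAGTATT) was in 0 of the 7 and was present in 15.7% of the 12055 genes tested with an annotated 3′-UTR. The one for miR-200a (CAGTGTT) was in 1 of the 7 and in 20.8% of genes, and either was in 30.3%. The 3′-UTRs of the 7 genes were short, 85 to 565 bases, against a median of 1174 bases over the genes tested. For comparison, the 3′-UTR of *Zeb1* (2401 bases) held 5 matches for miR-200b and miR-429 and 4 for miR-200a. A match is a run of letters, not a measured site.

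*S100a10* (ENSMUSG00000041959, chr3:93555080-93564643, plus strand) encodes p11, which binds annexin A2 and brings plasminogen activation to the cell surface. It was at 183 and 277 TPM in CAF-vec and at 341, 347 and 382 TPM in CAF-200. The groups did not overlap, and CAF-vec 1 was the lowest sample. The log2 fold-change was 0.66 (standard error 0.188, 95% CI 0.20 to 1.13, limma adjusted *p* = 0.0456), close to the threshold. It was 0.36 without CAF-vec 1 (limma adjusted *p* = 0.00912) and 0.96 without CAF-vec 2 (limma adjusted *p* = 7.1e-05). The gene was called in 7 of the 14 settings and lost its call, for example, without any one of the CAF-200 samples (adjusted *p* = 0.117 to 0.159, limma).

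*Anxa2*, the partner of *S100a10*, rose with it. It was at 656 and 686 TPM in CAF-vec and at 1000, 979 and 1021 TPM in CAF-200 (log2 fold-change 0.58 with a standard error of 0.103, limma adjusted *p* = 0.0128). The ratio of *S100a10* to *Anxa2* was 0.279 and 0.403 in CAF-vec and 0.341, 0.355 and 0.374 in CAF-200, so the CAF-200 values lay between the CAF-vec values. The log2 ratio differed by 0.087 between the groups (exact permutation test over 10 arrangements, two-sided *p* = 0.8, where 0.1 is the smallest this design allows), by -0.18 without CAF-vec 1 and by 0.35 without CAF-vec 2.

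*S100a11* (ENSMUSG00000027907, chr3:93520488-93526287, plus strand) encodes a binding partner of annexin A1 that acts in keratinocyte growth and membrane repair. It was at 301 TPM in CAF-vec 1, at 2097 TPM in CAF-vec 2 and at 2138, 2363 and 2359 TPM in CAF-200. CAF-vec 2 thus lay just under the CAF-200 samples, and CAF-vec 1 lay 6.95-fold under CAF-vec 2, a gap that 0.197% of the genes tested reached. The log2 fold-change was 1.52, with a 95% CI of -0.36 to 3.41 (limma adjusted *p* = 0.175). It was 0.12 without CAF-vec 1 (limma adjusted *p* = 0.297) and 2.92 without CAF-vec 2 (limma adjusted *p* = 5.8e-06), so its size rested on CAF-vec 1. Processed pseudogenes *Gm7665* and *Gm12854* match 297 bases of its transcript at 98.7 and 99.0% identity, so reads may have been shared with them.

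*S100a4* (ENSMUSG00000001020, chr3:90603771-90606045, plus strand) was at 3097 and 5927 TPM in CAF-vec and at 4270, 5141 and 4081 TPM in CAF-200. All 3 CAF-200 samples lay between the CAF-vec samples. The log2 fold-change was 0.06, with a 95% CI of -0.69 to 0.82 (limma adjusted *p* = 0.884), so a fall or a rise within that interval could not be told from no change. Without CAF-vec 1 it was -0.41 (limma adjusted *p* = 0.0459), and without CAF-vec 2 it was 0.53 (limma adjusted *p* = 0.0111), which passed the threshold in opposite directions. The paper lists FSP1 among the CAF markers that miR-200 suppressed, and reports lower mRNA of most CAF markers in CAF-200 by RT-qPCR. *Gm42674*, which overlaps *S100a4* on the same strand and shares 302 identical bases with it, was at 0 to 0.725 TPM. By the root mean square distance of centred log2 profiles over the 5 samples, the nearest genes to *S100a4* were *Nfat5* (0.0639), *Gm14305* (0.0658) and *Prelp* (0.0679). Each shares with *S100a4* a low CAF-vec 1, a high CAF-vec 2 and CAF-200 samples between them. *Nfat5* was at 36.0 and 68.6 TPM in CAF-vec and at 49.1 to 55.1 TPM in CAF-200. Near profiles over 5 samples do not show shared regulation.

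*S100a6* (ENSMUSG00000001025, chr3:90612882-90624181, plus strand) encodes calcyclin, a protein of proliferating cells that binds the calcyclin-binding protein CACYBP. It was at 5872 and 3322 TPM in CAF-vec and at 4867, 4043 and 4444 TPM in CAF-200. Here too the CAF-200 samples lay between the CAF-vec samples, but CAF-vec 1 was the high one. The log2 fold-change was 0.01 (95% CI -0.67 to 0.68, limma adjusted *p* = 0.986). It was 0.42 without CAF-vec 1 (limma adjusted *p* = 0.0229) and -0.40 without CAF-vec 2 (limma adjusted *p* = 0.0194).

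The sum of *S100a4* and *S100a6* varied little, from 8525 to 9249 TPM over the 5 samples, whereas their ratio was 0.527 and 1.78 in CAF-vec and 0.877, 1.27 and 0.918 in CAF-200. CAF-vec 1 held the lowest ratio and CAF-vec 2 the highest. *S100a11* made up 3.15% of the summed level of the 7 genes in CAF-vec 1 and 17.8 to 20.6% in the other 4 samples.

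*S100a13* (chr3:90514435-90524581, plus strand) takes part in the release of FGF1 and IL-1α, which lack a signal peptide. It was at 51.2 and 63.9 TPM in CAF-vec and at 61.1, 71.2 and 66.0 TPM in CAF-200 (log2 fold-change 0.20, 95% CI -0.12 to 0.52, limma adjusted *p* = 0.266). *S100a1* (chr3:90511034-90514392, minus strand), best known as a regulator of calcium cycling in heart muscle, was at 35.1 and 53.0 TPM in CAF-vec and at 43.9, 50.3 and 50.1 TPM in CAF-200 (log2 fold-change 0.15, 95% CI -0.31 to 0.61, limma adjusted *p* = 0.551). The groups overlapped for both genes. Their start sites lie head to head, 42 bases apart, on opposite strands. Without CAF-vec 2 the log2 fold-change was 0.36 for *S100a13* and 0.45 for *S100a1*, and without CAF-vec 1 it was 0.04 for *S100a13* and -0.14 for *S100a1*.

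**Figure D2:**
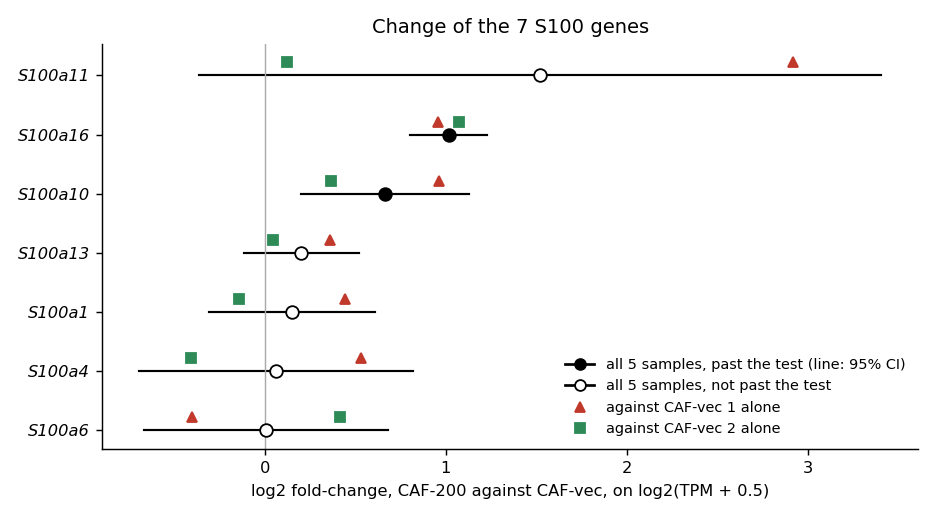
Log2 fold-change of each S100 gene between CAF-200 and CAF-vec on log2(TPM + 0.5), with its 95% CI (black; filled where the adjusted *p* was under 0.05), and the log2 fold-change against CAF-vec 1 alone (triangles) or CAF-vec 2 alone (squares). For *S100a16* both lie near 1.02, at 0.96 and 1.07, while for *S100a1*, *S100a4* and *S100a6* they lie on opposite sides of 0.

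The comparison with each CAF-vec sample alone, drawn with the log2 fold-changes, separates the genes. The direction was the same against either sample for *S100a10*, *S100a11*, *S100a13* and *S100a16*, and opposite for the other 3. For *S100a13* the log2 fold-change against CAF-vec 2 alone was near 0, at 0.04. A lone CAF-vec sample has no replicate, and in these fits it is assumed to vary like the CAF-200 samples. In all, CAF-200 values lay above both CAF-vec values for 3 of the 7 genes, against 24.3% of all genes tested, and below both for 0, against 37.3%. The groups overlapped for the other 4, while 61.6% of all genes had groups that did not.

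The 7 genes are short, and the gap between the CAF-vec samples was widest among short genes. The summed exon length of the 7 was 511 to 1617 bases. Over the 155 genes tested of up to 750 bases, the log2 difference of CAF-vec 1 from CAF-vec 2 had a median of -0.31 and an SD of 1.33, and over the 5275 genes above 5000 bases a median of 0.03 and an SD of 0.415. The 4 members of up to 750 bases, *S100a1*, *S100a4*, *S100a11* and *S100a13*, were all lower in CAF-vec 1, with log2 differences of -2.80 to -0.32. The 2 members of the next class, 750 to 1500 bases, where the median over 690 genes was 0.11, differed in opposite directions, *S100a10* by -0.60 and *S100a6* by 0.82. Summed exons join those of all annotated transcripts of a gene. The longest coding transcripts of *S100a10* and *S100a6* were 685 and 731 bases, also under 750, so the classes depend on the measure of length. The median log2 fold-change between CAF-200 and CAF-vec was 0.33 in the shortest class and -0.12 in the longest. *S100a16*, the longest of the 7, differed by 0.11 between the CAF-vec samples. The part of transcript length, or of what set CAF-vec 1 apart, in the results of the members was not tested.

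**Figure D3:**
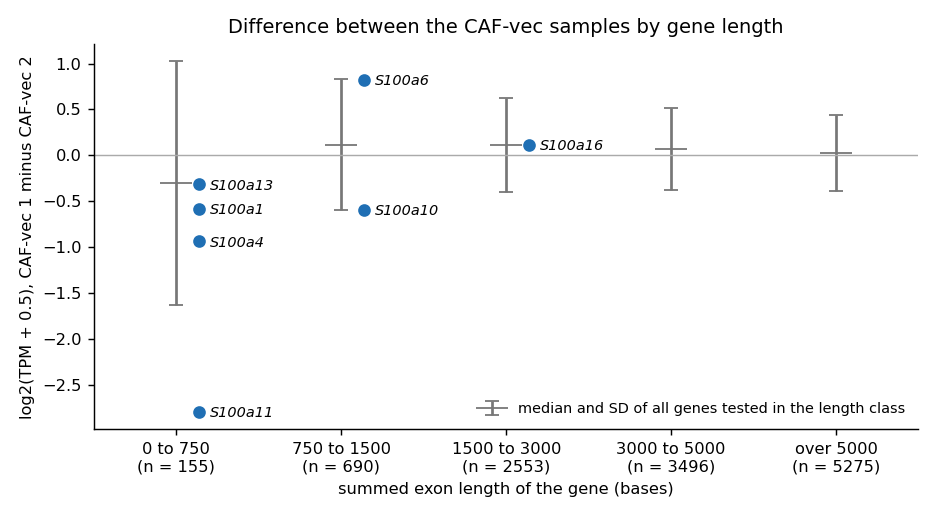
Difference of log2(TPM + 0.5) between CAF-vec 1 and CAF-vec 2 by summed exon length. Grey marks are the median and SD of all genes tested in each length class (n below the axis), and blue points are the S100 genes, of which *S100a11* lies lowest at -2.80 and *S100a16* nearest to 0 at 0.11.

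Promoter windows of RefSeq (GRCm38.p6, 250 bases before to 50 after a start site) were found for 6 of the 7 genes, in 7 windows, and searched on both strands. None of the 5 motifs searched was in more than 2 of these genes. A TATA box (TATAAA) was found only in *S100a4*, at position -31 from the start, and an AP-1 motif (TGACTCA or its reverse complement TGAGTCA) only in *S100a11*, which held 2. These motifs were in 13.6% and 5.2% of 32851 mouse promoter windows. The ZEB1 E-box (CAGGTG or CACCTG), the motif bound by the repressor that miR-200 targets, was in 20.2% of windows and, among the members, only in *S100a16*, at position -203 from the start. The CCAAT box was only in *S100a6* (37.4% of windows) and the GC box GGGCGG in *S100a11* and *S100a16* (35.7% of windows). One stretch of each of the first 3 kinds is shown with the motif in capitals because the 3 genes that carry them had different profiles.
S100a4: gcctggcagggTATAAAtaggtcagatt
S100a11: cgggcacagccTGAGTCAggctgaggggc
S100a16: ggtgagagaaaCAGGTGatgagccttct
A match is a description of the sequence and does not show binding.

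All 7 genes lie on chromosome 3, within 3.05 Mb, in 2 blocks. *S100a1*, *S100a13*, *S100a16*, *S100a4* and *S100a6* lie within 113 kb, and *S100a11* and *S100a10* within 44.2 kb. Between them lies the epidermal differentiation complex, which encodes proteins of the cornified envelope of skin. Of the 68 other genes of the table in this interval, 10 passed the minimum level, all of them at 18.2 TPM or less in every sample. Of these, *Sprr2h*, *Ivl*, *Lce1g* and *S100a8* passed through the CAF-200 samples alone, so a difference was built in for them. The 7 of 10 called higher, with 0 lower and 3 not called, can therefore not be read against the 11.9% of all genes called higher. With at least 1 TPM required in every sample 5 genes were left, of which 3 were higher and 0 lower, with a median log2 fold-change of 0.53. With no filter the median over the 68 genes was 0, since 35 of them were listed at 0 in every sample, and 3 were called higher. The 3 higher genes at 1 TPM or more in every sample were *S100a7a*, *Sprr1a* and *Crct1*, and the genes of this interval that are not S100 genes were named after their values were seen. *Sprr1a*, a precursor of the cornified envelope, was at 1.48 and 2.28 TPM in CAF-vec and at 5.66, 4.30 and 6.34 TPM in CAF-200 (1.32 on the log2 scale, limma adjusted *p* = 0.0106). *Crct1* was at 1.53 and 1.69 TPM in CAF-vec and at 3.60, 3.91 and 2.85 TPM in CAF-200 (0.90 on the log2 scale, limma adjusted *p* = 0.0127). *Sprr2h* was at 1.67, 1.23 and 2.75 TPM in CAF-200 and was listed at 0 in both samples of CAF-vec. The called genes, *S100a16* and *S100a10* included, did not form a run from one end of the interval to the other, since *S100a3*, *S100a4*, *S100a5* and *S100a6* lie between *S100a16* and *S100a7a*. With the replicate block 4 of the 10 were called higher, and without one of the CAF-200 samples 2 to 3 of 10.

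**Figure D4:**
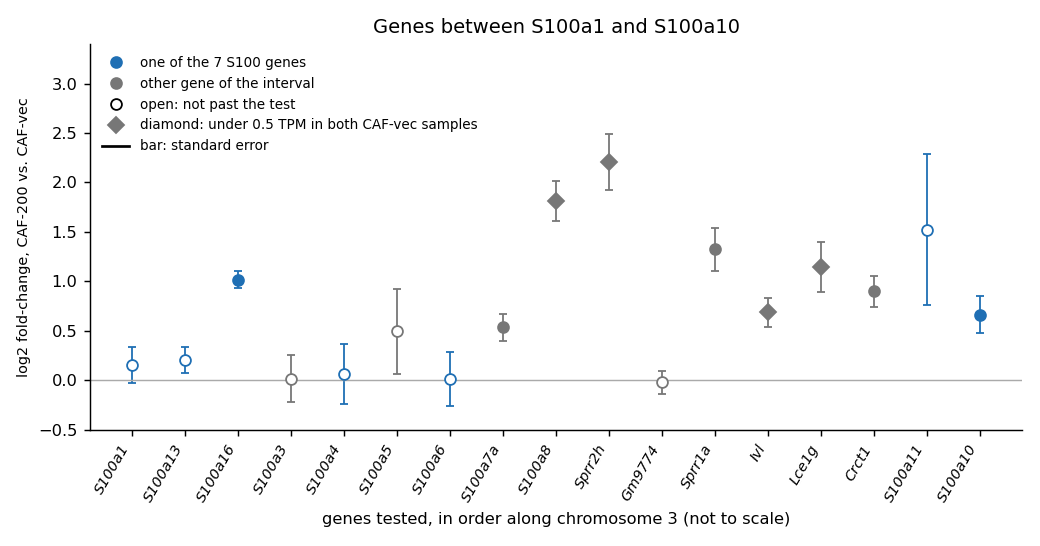
Log2 fold-change between CAF-200 and CAF-vec, with its standard error, of the 17 genes tested from *S100a1* to *S100a10* in their order along chromosome 3, not to scale. Filled points had an adjusted *p* under 0.05; diamonds are genes under 0.5 TPM in both CAF-vec samples, whose difference was built in by the minimum level and whose fitted value depends on the pseudocount. Filled points lie above 0, and the points of *S100a4* and *S100a6* lie at 0.06 and 0.01.

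Of the wider S100 family, 5 of the 18 genes listed were tested. Of the others, 12 were below the minimum, 8 of them at 0 in every sample, and 1 was not analysed here. *S100a8*, an alarmin of myeloid cells, was at 0.295 and 0.228 TPM in CAF-vec and 2.79, 2.11 and 1.71 TPM in CAF-200. It passed the minimum level through the CAF-200 samples alone, so a difference was built in and its call is no evidence of one. Its dimer partner *S100a9* and the neutrophil marker *Ly6g* were at 0 in all 5 samples. The summed level of 5 leukocyte and macrophage markers was 8.34 to 9.31 TPM in CAF-vec and 12.2 to 12.8 TPM in CAF-200, with *Adgre1* at 0 throughout. Of these markers *Lyz2* was higher in CAF-200, at 1.11 and 1.99 TPM against 6.48 to 7.48 TPM. *Cd68* (2.25 and 5.01 TPM against 2.39 to 3.54 TPM) and *Csf1r* (4.97 and 2.31 TPM against 2.29 to 2.39 TPM) overlapped, and *Ptprc* was at 0.0404 TPM or less. The part of leukocyte RNA in the values of *S100a8* was not tested. *S100a7a*, over the minimum in every sample, was at 10.1 and 13.1 TPM in CAF-vec and at 16.8, 15.8 and 18.2 TPM in CAF-200 and was called higher (0.53 on the log2 scale, limma adjusted *p* = 0.0363). *S100b*, known from glial cells and adipocytes, was at 1.05 and 0.868 TPM in CAF-vec and 0.242, 0.373 and 0.432 TPM in CAF-200. It passed the minimum level through the CAF-vec samples alone, so here too a difference was built in. The Schwann cell marker *Sox10* was at 0 in all samples.

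The annexins, calcium-dependent membrane-binding proteins that several S100 proteins hold, moved in both directions. Of 10 tested, 2 were higher and 5 lower in CAF-200, against 11.9% higher and 18.6% lower over all genes tested, and the median of their log2 fold-changes was -0.35. *Anxa8* rose with *Anxa2*, from 2.38 and 3.33 TPM to 9.08, 8.26 and 7.75 TPM (1.41 on the log2 scale, limma adjusted *p* = 0.00434). The 5 lower ones were *Anxa11* (log2 fold-change -0.95), *Anxa5* (-0.82), *Anxa4* (-0.62), *Anxa9* (-0.56) and *Anxa7* (-0.48). With samples centred on their medians 3 annexins were lower, and 1 was lower with no filter, with the replicate block or without any one of the CAF-200 samples. The number higher was 1 with the block or without any one of the CAF-200 samples. *Anxa5*, a phosphatidylserine-binding protein, was at 894 and 672 TPM in CAF-vec and at 451, 424 and 439 TPM in CAF-200 (limma adjusted *p* = 0.0127). *Anxa1*, the partner of *S100a11*, was not called, at -0.18 on the log2 scale (limma adjusted *p* = 0.319).

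Of 29 other targets and receptors of S100 proteins, 22 were tested, 3 were higher, 3 lower and 16 were not called, shares near the 11.9% higher and 18.6% lower of all genes, and the median of their log2 fold-changes was 0.02. Among receptors, *Tlr4*, which binds the S100A8 and S100A9 complex, was lower, from 14.1 and 16.2 TPM in CAF-vec to 7.998, 9.76 and 8.99 TPM in CAF-200 (-0.73 on the log2 scale, limma adjusted *p* = 0.0114). *Ager*, which encodes RAGE, was at 0.745 to 2.02 TPM and was not called (-0.50 on the log2 scale, limma adjusted *p* = 0.165). *Alcam*, 1 of the 3 counted higher, was at 0.104 and 0.259 TPM in CAF-vec and at 0.542, 0.731 and 0.514 TPM in CAF-200, and passed the minimum through CAF-200 alone, so a difference was built in. Among the intracellular targets, *Trp53*, which encodes p53, was higher (0.45 on the log2 scale, limma adjusted *p* = 0.0179), and *Myh10*, a non-muscle myosin heavy chain, was lower (-0.44 on the log2 scale, limma adjusted *p* = 0.0219). In the plasminogen and protease branch, *Plaur*, the urokinase receptor, was higher (0.60 on the log2 scale, limma adjusted *p* = 0.0249) and *Ctsb*, which encodes cathepsin B, was lower (-0.40 on the log2 scale, limma adjusted *p* = 0.027). The plasminogen activators of the list, *Plat* and *Plau*, were not called (0.06 and 0.14 on the log2 scale, limma adjusted *p* = 0.701 and 0.358). *Cacybp*, the partner of *S100a6*, was at 130 and 128 TPM in CAF-vec and at 133, 131 and 130 TPM in CAF-200 (log2 fold-change 0.03, 95% CI -0.17 to 0.22, limma adjusted *p* = 0.797). With the replicate block 0 of these targets and receptors were higher and 1 was lower, and without any one of the CAF-200 samples 0 were higher and 0 to 1 lower.

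Among 25 tested genes of other EF-hand proteins, which bind calcium by the same fold, 1 was higher, 3 were lower and 21 were not called, shares below the 11.9% and 18.6% of all genes, and the median of their log2 fold-changes was -0.10. *Efhd2*, an actin-binding protein, was higher by 0.51 on the log2 scale (limma adjusted *p* = 0.0202). *Pef1* (-0.60), *Sri*, which encodes sorcin (-0.36), and *Hpcal1* (-0.32) were lower on the log2 scale (adjusted *p* = 0.00789, 0.0378 and 0.0447, limma). With the replicate block 0 were higher and 0 lower, and without any one of the CAF-200 samples 0 were higher and 0 to 1 lower. For this and the lists above, the share of all genes called in those settings was not counted. The drops can therefore not be read as particular to these genes.

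**Figure D5:**
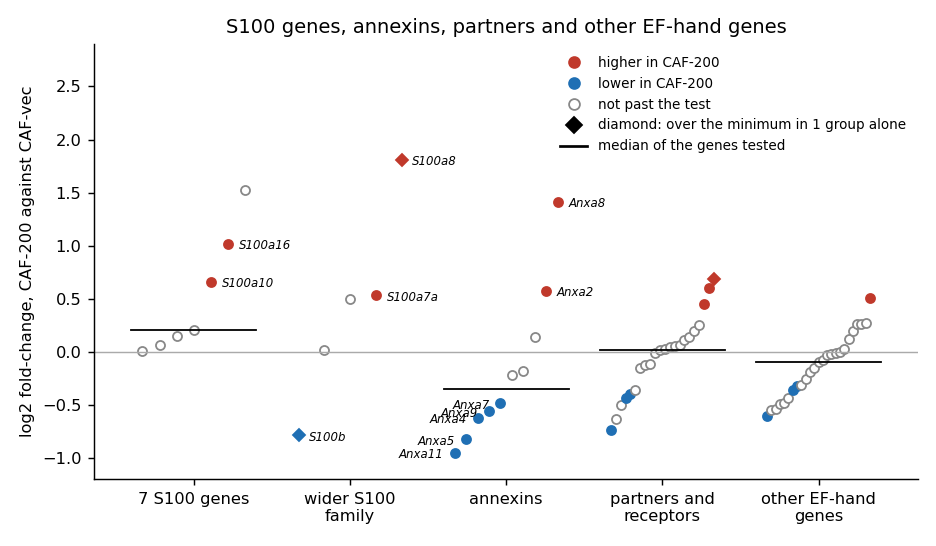
Log2 fold-change between CAF-200 and CAF-vec of the tested genes of 5 groups, ordered by value within each; red points were higher and blue points lower at an adjusted *p* under 0.05, open points were not called, diamonds were over the minimum level in 1 group alone, and lines are medians (none is drawn for the wider family). The medians lie at 0.20 for the 7 S100 genes, -0.35 for the annexins, 0.02 for partners and receptors and -0.10 for other EF-hand genes; the highest open point is *S100a11*.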

How the data were processed

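Stranded mRNA libraries of 5 samples of murine CAFs were sequenced, and the authors deposited 1 table of normalized values. The submitters' processing notes name FastQC, cutadapt, Trimmomatic, STAR, RSEM and edgeR, and the builds GRCm38 and mm10. The deposited values were taken as TPM, since columns summed to 999956 to 1000111, low values lay near multiples of 0.01, the level did not rise with gene length, and *mt-Atp8* exceeded the overlapping, longer *mt-Atp6* in 4 of 5 samples. The table's name refers to TMM, a scaling between samples. Since the columns share nearly the same total, it is not known whether these values carry it. The test had been planned for CPM and was kept for TPM. No counts or depth were available and no count model was run. The labels and methods name different extraction kits, and the methods describe triplicates. Of the sample columns 5 were used and 0 were not.

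The groups were compared on log2(TPM + 0.5), which understates changes of low genes, with limma 3.58.1 in R 4.3.3 (variance trend, two-sided), for 12175 of 21835 genes at 0.5 TPM or more in 2 or more samples, and *p* values were adjusted by Benjamini-Hochberg. The test was tried on simulated data. Positions came from GENCODE M21 (GRCm38). Tables and plots used matplotlib 3.10.9, SciPy 1.17.1, numpy 2.4.6 and pandas 2.3.3 in Python 3.11.15.

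The members and lists were chosen with earlier results of these data known. Named are the 7 members, *Anxa2*, *Cacybp*, *Zeb1*, *Zeb2*, called genes of the S100, annexin and partner lists, the 3 largest called changes in each direction of the EF-hand list, and the 3 profiles nearest to *S100a4*. Others (*Anxa1*, *Ager*, *Plat*, *Plau* and genes between the S100 blocks) were chosen after their values were seen. Alternatives were other pseudocounts (1 or 0.1), no filter or at least 1 TPM in every sample, quantile normalization, centring on sample medians, no variance trend, an adjusted *p* under 0.01, each sample left out, and the replicate number as a block.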

Additional observations from a re-analysis of the deposited data

How the results depend on the processing

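*S100a16* kept its call at an adjusted *p* under 0.05 under all 14 alternatives, and *S100a10* in 7 of 14. Of the 7 S100 genes, 1 rather than 2 was higher with no filter, with quantile normalization, with the replicate block, at an adjusted *p* under 0.01 and with mitochondrial genes left out (an alternative chosen after seeing the data), and 1 to 6 were when a sample was left out, with 0 to 1 lower. The 6 came without CAF-vec 2, and the 1 lower was *S100a4* without CAF-vec 1 and *S100a6* without CAF-vec 2. Log2 fold-changes with a sample left out ran from -0.14 to 0.45 for *S100a1*, -0.41 to 0.53 for *S100a4* and -0.40 to 0.42 for *S100a6*. The number past the thresholds of the study was 0 with no filter and with the block, and 0 to 1 with a sample left out. Direction reversed for *S100a1* without CAF-vec 1 (-0.14), for *S100a4* without CAF-vec 1 (-0.41) or CAF-200 2 (-0.04), for *S100a6* with quantile normalization (-0.32), without CAF-vec 2 (-0.40) or without CAF-200 1 (-0.06), and for the log2 ratio of *S100a10* to *Anxa2* without CAF-vec 1 (-0.18; -0.18 to 0.35 with any sample left out).

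In the wider family (where *S100a8* and *S100b* passed the minimum through 1 group alone) the number higher fell to 1 and the number lower to 0 with no filter, with at least 1 TPM in every sample (fewer genes tested), with the block and at an adjusted *p* under 0.01, and these were 1 to 2 and 0 to 1 with a sample left out. For the annexins, 1 was higher with the block and at 0.01 (1 to 2 with a sample left out), and 1 was lower with no filter, the block and at 0.01, 3 with centring, and 1 to 7 with a sample left out. Of the partners, the number higher was 1 with no filter and 0 with the block and at 0.01 (0 to 5 with a sample left out), and the number lower 1 with centring, 1 with the block and 0 at 0.01 (0 to 9, the 9 without CAF-vec 2). Of other EF-hand genes, 0 were higher with no filter, the block and at 0.01 (0 to 6), and the number lower was 1 with no filter, quantile normalization, centring and at 0.01, and 0 with the block (0 to 13, the 13 without CAF-vec 2). The share of all genes called was not counted under the block, with no filter, at 0.01 or with a sample left out. Changes in number under these settings, for the 7 S100 genes too, can therefore not be read as particular to the genes listed. The cause was not tested.

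Over all genes 1446 were higher and 2265 lower (39% higher), against 51.6% higher with centring and 48.5% with quantile normalization. The replicate numbers come from the labels. Deviations from the group means correlated at 0.249 and 0.134 for the same-numbered pairs, but only 2 pairs exist and CAF-vec 2 also correlated with CAF-200 3 at 0.119, so the samples are taken to share only a number. With the replicate block *S100a16* was at 1.00 and *S100a10* at 0.61 on the log2 scale, and the latter lost its call. Depth is unknown, so the precision of low genes is not known.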
